A study of Rattus norvegicus with 6 samples.

Results

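The collagen chain genes are the rows of the deposited expression table whose symbol reads Col, a type number, the letter a and a chain number, such as Col1a1. There were 43 of them among 34045 rows. Names alone decided membership, though this group and the lists read beside it were chosen with earlier results of these data known. Bulk RNA sequencing was done on calvarial defects, wounds in the bone of the skull roof, of male wild type Sprague-Dawley rats (an outbred stock) at week 4 after surgery. The defects held a CGG-Cit hydrogel in 3 libraries and a CGG hydrogel in 3 libraries. All animals were thus operated on and given a gel, and the labels used here spell out neither name. No label says that the libraries of a group came from separate rats, so the p-values rest on the spread among these 6 libraries and that spread may be technical.

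Every collagen is a triple helix of 3 chains, which may be copies of one gene's product or come from different genes. Fibrillar collagens (types I, II, III, V, XI, XXIV and XXVII) build the rope-like fibrils of bone, skin and cartilage. Network collagens form sheets, as type IV does in basement membranes. Fibril-associated collagens sit on fibrils, beaded collagens such as type VI form thin filaments around cells, membrane collagens span the cell surface, and multiplexins (types XV and XVIII) lie beside basement membranes. Type VII makes anchoring fibrils under epithelia. In bone, type I is made by osteoblasts and carries the mineral, whereas type III is abundant in healing wounds and loose connective tissue.

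Values are FPKM (fragments for each kilobase of a gene, after a scaling for each library), so that levels can be compared between genes. Gene positions are the deposited table's own, for which no build is certain. The whole reads recovered from the FPKM summed to 14744207, 15001310 and 16127352 in CGG-Cit 1, 2 and 3, and to 15054925, 16224920 and 15283405 in CGG 1, 2 and 3. The scaling did not follow these sums. CGG 2 had more reads than CGG 1, yet 1 read in 1 kilobase stood for 0.0640 FPKM in CGG 2 and 0.0627 FPKM in CGG 1. Markers of bone were present in every library. The summed level of 8 osteoblast markers was 842 to 1958 FPKM in CGG-Cit and 3272 to 4172 FPKM in CGG, and 5 of the 8 fell. Markers of other cells moved as well: 7 of 7 skeletal muscle markers fell (33.1 to 286.3 FPKM in CGG-Cit against 5587 to 7232 FPKM in CGG), 7 of 7 tested neutrophil markers fell, 6 of 8 macrophage markers rose and 5 of 8 fibroblast markers rose. Every library is bulk tissue, so fewer cells of a type and less RNA per cell cannot be told apart.

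The total of collagen chain transcripts overlapped between the groups. The 43 genes took 3.87%, 4.98% and 5.59% of the recovered reads in CGG-Cit 1, 2 and 3, and 4.62%, 5.85% and 6.39% in CGG 1, 2 and 3. Their FPKM summed to 8752 ± 1522 in CGG-Cit and 10169 ± 1962 in CGG (SD, n = 3 each; exact two-sided permutation test, p = 0.4). In every library Col1a1 held the highest level and Col3a1 the second highest. Over all libraries 2 members averaged at least 1000 FPKM, 6 lay between 100 and 1000, 12 between 10 and 100, 9 between 1 and 10, and 14 under 1.

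Single members differed between the groups. Of the 33 members with a mean of at least 0.5 FPKM, which were tested with limma over all 15965 such genes, 8 were higher in CGG-Cit at an adjusted p under 0.05 and 1 was lower. That is 24.2% of the members tested, where 7.75% of all genes tested were higher, and 3.03%, where 9.78% of all genes tested were lower. The 8 were Col8a1, Col14a1, Col15a1, Col4a1, Col4a2, Col4a5, Col6a1 and Col5a3, of 5 classes, and the lower one was Col22a1. The other 24 did not pass, and 22 of the 33 had an unadjusted p under 0.05, as did 35.4% of all genes tested. The median log2 fold change of the 33 (CGG-Cit minus CGG, on log2(FPKM + 1), a scale that understates the change of low genes) was 0.36, beside 0.002 over all genes tested. The 3 libraries of CGG-Cit all lay above the 3 of CGG for 14 members, 42.4% of those tested, where 19.6% of all genes did so. They all lay below for 7, or 21.2%, where 22.1% of all genes did. Col4a6, Col6a6 and Col25a1 reached the filter by their level in CGG-Cit alone, which bears on these counts.

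**Figure D1:**
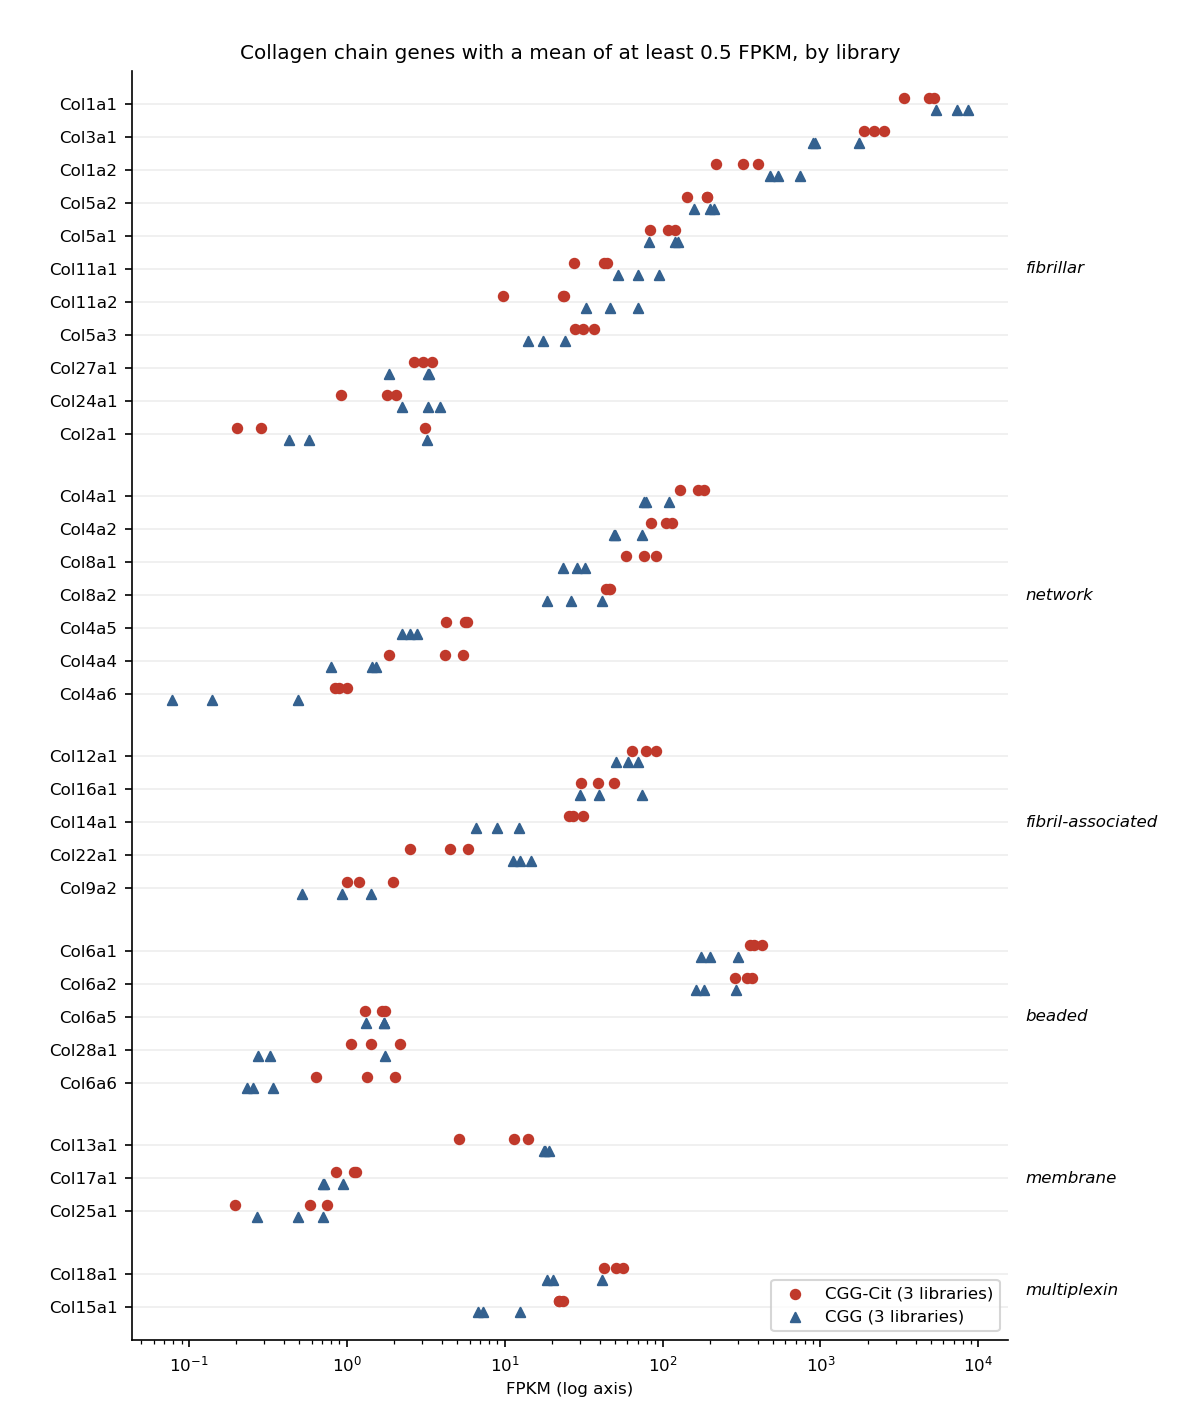
FPKM of each tested collagen chain gene (log axis) in the 3 CGG-Cit libraries (circles) and the 3 CGG libraries (triangles), by class and, within a class, by mean level. In the network and multiplexin classes every circle lies to the right of every triangle of the same gene, whereas Col1a1, Col1a2, Col11a1 and Col11a2 show the opposite order.

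**Figure D2:**
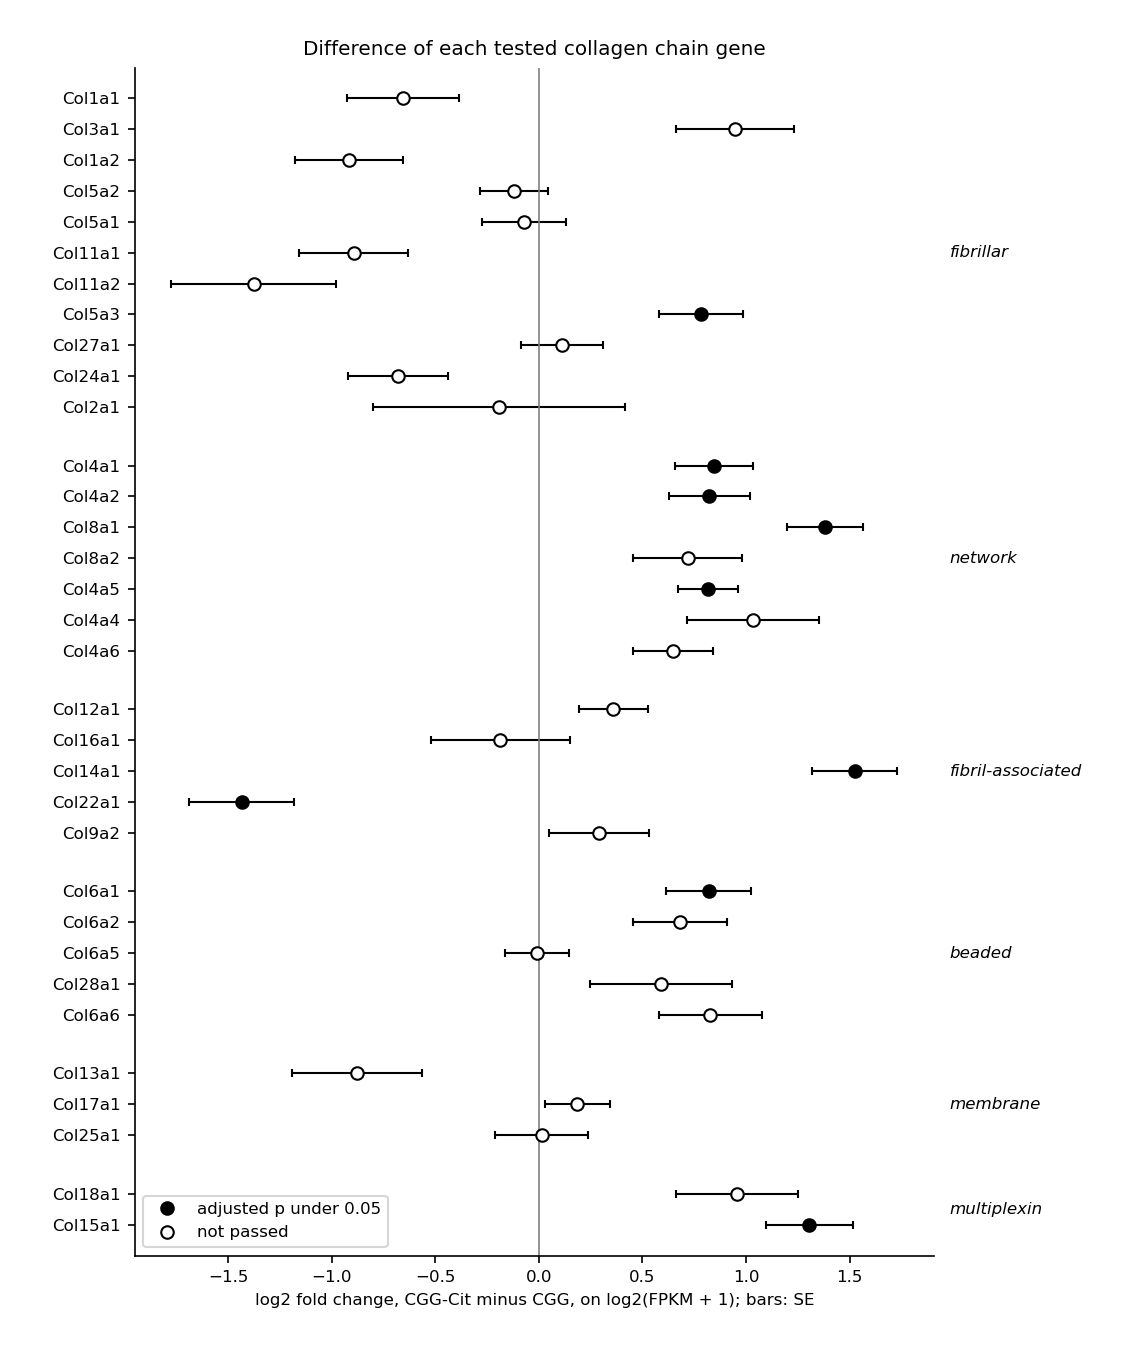
Log2 fold change of each tested collagen chain gene, CGG-Cit minus CGG on log2(FPKM + 1), with its standard error. Filled points passed at an adjusted p under 0.05: 8 lie to the right of 0 and Col22a1 to the left.

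Of the 11 fibrillar chain genes, all tested, 1 rose, Col5a3, and 0 fell (7 had an unadjusted p under 0.05, beside the 35.4% of all genes). With voom on the recovered reads 3 of them were lower. The class median was -0.19. Col1a1 encodes the alpha 1 chain that makes up most of type I collagen (ENSRNOG00000003897, listed at chromosome 10, 82745801 to 82762789). It had 3401, 4869.8 and 5274 FPKM in CGG-Cit 1, 2 and 3, against 5405, 7306 and 8622.5 FPKM in CGG 1, 2 and 3. All CGG-Cit libraries lay below all CGG libraries, with a gap of 131 FPKM between CGG-Cit 3 and CGG 1, and the log2 difference of -0.65 ± 0.271 (SE) had an adjusted p of 0.138. Col1a2, the partner chain of type I (ENSRNOG00000011292), had 321.6, 218.8 and 401.6 FPKM in CGG-Cit, against 539.8, 476.2 and 744.1 FPKM in CGG. These groups did not overlap either, and the log2 difference was -0.92 ± 0.262 (SE; adjusted p = 0.0560), which passed without CGG-Cit 3 (0.0340). Col3a1 encodes the single chain of type III (ENSRNOG00000003357, listed at chromosome 9, 52023295 to 52059217). It had 1889.5, 2185 and 2509 FPKM in CGG-Cit, against 920.0, 1746 and 896.9 FPKM in CGG. The groups did not overlap, and CGG 2 lay closest to CGG-Cit. The log2 difference was 0.95 ± 0.285 (SE; adjusted p = 0.0641), and it passed without CGG 2 (adjusted p = 0.0318), after rescaling to TPM (0.0237) and with quantile normalization (0.0282).

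Type V and type XI chains set the width of fibrils by joining type I and type II. Col5a3, a minor chain of type V (ENSRNOG00000020525), had 27.9, 31.1 and 36.9 FPKM in CGG-Cit, against 14.0, 24.1 and 17.4 FPKM in CGG. It rose 1.73-fold in mean, with a log2 fold change of 0.78 ± 0.204 (SE; adjusted p = 0.0438). Of the 9 calls it had the highest adjusted p, and it ended when no low genes were filtered out (adjusted p = 0.0698) and without any library but CGG 2 (0.0735 to 0.13). The major type V chains overlapped between the groups. Col5a1 lay at 82.7 to 125.8 FPKM and Col5a2 at 143.8 to 213.3 FPKM over all libraries. The type XI chains, which did not pass, had the opposite sign. Col11a1 had 27.3, 42.6 and 44.8 FPKM in CGG-Cit, against 52.6, 69.7 and 94.6 FPKM in CGG (adjusted p = 0.0611). Col11a2 had 9.78, 23.9 and 23.5 FPKM in CGG-Cit, against 32.9, 46.7 and 70.1 FPKM in CGG (adjusted p = 0.0576). Neither pair of groups overlapped. With voom on the recovered reads, Col1a2, Col11a1 and Col11a2 were lower at adjusted p of 0.0426, 0.0472 and 0.0458, and the background of lower calls was 10.7%. In limma with the replicate number as a block they were lower as well (adjusted p = 0.0292, 0.0284 and 0.0284), where 6.61% of all genes were.

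The remaining fibrillar genes were low. Col24a1, a fibrillar type of developing bone and cornea, averaged 1.59 ± 0.599 FPKM in CGG-Cit and 3.14 ± 0.839 in CGG (SD, n = 3 each; adjusted p = 0.0970). Col27a1 stayed at 1.86 to 3.47 FPKM over all libraries. Col2a1, the collagen of cartilage, had 0.202, 0.286 and 3.13 FPKM in CGG-Cit, against 0.428, 3.21 and 0.579 FPKM in CGG. A single library of each group was therefore high, and the groups overlapped. Beside these genes, osteoblast markers were lower in CGG-Cit as given above, lowest in CGG-Cit 1 (842 FPKM). That library was also lowest in Col1a1, Col11a1, Col11a2 and Col24a1, while Col1a2 was lowest in CGG-Cit 2 and Col3a1 in CGG 3. CGG-Cit 1 was the lowest of its group in 24 of the 33 members tested, so this order is not particular to these genes. It does not bear on the gap between the groups. Of 8 chondrocyte markers 4 were tested and 0 passed with limma (0 by unadjusted p under 0.05, 0 by voom). The sum of all 8 was 12.2 to 14.4 FPKM in CGG-Cit and 7.3 to 14.8 FPKM in CGG, with Snorc, Cnmd and Matn1 at 0 in some libraries. Skeletal muscle and fibroblast markers differed too, as given above. The part of all these cells in the fibrillar values was not tested.

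Network collagens gave the most calls. Of 9 members 7 were tested, 4 rose and 0 fell, where 7.75% of all genes tested were higher and 9.78% lower. In all 7 every CGG-Cit library lay above every CGG library, as in 19.6% of all genes tested. All 7 had an unadjusted p under 0.05, beside the 35.4% of all genes (class median 0.82). Col4a6, among the 7, reached the filter by its level in CGG-Cit alone. Col4a1 and Col4a2 encode the chains of the common type IV collagen, which lies under endothelium and around muscle fibres, fat cells and nerves. Col4a1 (ENSRNOG00000016281, listed at chromosome 16, 83522162 to 83632153) had 128.1, 166.6 and 181.8 FPKM in CGG-Cit, against 76.7, 109.1 and 78.7 FPKM in CGG. Col4a2 (ENSRNOG00000023972, chromosome 16, 83387364 to 83438561, on the other strand) had 84.8, 105.1 and 115.3 FPKM in CGG-Cit, against 49.7, 74.4 and 49.0 FPKM in CGG. In both genes CGG-Cit 1 was the lowest and CGG-Cit 3 the highest of its group, and CGG 2 stood above the other CGG libraries. Col4a1 rose 1.80-fold (log2 fold change 0.85 ± 0.186, SE; adjusted p = 0.0288) and Col4a2 1.76-fold (0.82 ± 0.195; adjusted p = 0.0343). The Col4a1 call ended on leaving out CGG 1 or 3 or CGG-Cit 2 or 3 (adjusted p at most 0.1). The Col4a2 call ended without any library but CGG 2 (up to 0.113) and without the filter on low values (0.0557).

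These 2 genes start back to back. Their promoter windows are shown because the genes moved together and share that stretch of DNA. In RefSeq's GRCr8 assembly the starts lie 77 bases apart on opposite strands, and windows of 250 bases before to 50 after each start overlap by 176 bases. The deposited table, with its own positions, places the 2 starts 83601 bases apart. The windows are written 5′ to 3′ on the gene's own strand, with GGGCGG (the Sp1 box) and CCAAT in capitals, on either strand (reading CCGCCC or ATTGG where reversed). The window of Col8a1, the network chain with the smallest adjusted p, follows for comparison. The other type IV genes also lie in pairs on opposite strands in GRCr8, and their windows are not shown. Col4a3 and Col4a4 start 413 bases apart with windows that overlap by 88 bases, and Col4a5 and Col4a6 start 1264 bases apart. Col4a1 is at chr16:84885347-84885646 on the plus strand, Col4a2 at chr16:84885471-84885770 on the minus strand and Col8a1 at chr11:56246532-56246831 on the plus strand.
Col4a1: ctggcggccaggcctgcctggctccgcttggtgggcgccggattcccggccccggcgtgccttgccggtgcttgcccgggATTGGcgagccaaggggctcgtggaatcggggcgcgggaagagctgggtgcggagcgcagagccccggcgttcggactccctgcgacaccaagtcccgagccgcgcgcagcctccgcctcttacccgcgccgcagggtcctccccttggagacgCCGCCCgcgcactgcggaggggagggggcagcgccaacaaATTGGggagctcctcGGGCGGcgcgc
Col4a2: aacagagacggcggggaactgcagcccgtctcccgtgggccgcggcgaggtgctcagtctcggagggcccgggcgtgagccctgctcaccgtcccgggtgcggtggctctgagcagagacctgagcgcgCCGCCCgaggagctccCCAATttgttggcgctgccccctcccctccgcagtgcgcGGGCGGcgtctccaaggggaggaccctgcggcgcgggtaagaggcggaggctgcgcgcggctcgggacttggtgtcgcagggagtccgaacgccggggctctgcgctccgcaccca
Col8a1: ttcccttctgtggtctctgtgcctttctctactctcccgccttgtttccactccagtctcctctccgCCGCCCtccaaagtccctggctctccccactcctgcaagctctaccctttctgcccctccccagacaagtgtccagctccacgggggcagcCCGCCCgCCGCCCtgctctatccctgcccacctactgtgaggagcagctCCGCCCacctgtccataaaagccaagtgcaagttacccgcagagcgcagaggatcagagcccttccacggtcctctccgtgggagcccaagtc
Every match of the Col4a2 window is also a match of the Col4a1 window, the same bases read from either side. The last GGGCGG and ATTGG of Col4a1 are the first CCGCCC and CCAAT of Col4a2. The CCGCCC of Col4a1 is the GGGCGG of Col4a2. The counts of these 2 windows are therefore not separate. Col4a1 held 2 CCAAT and 2 GGGCGG matches, Col4a2 1 and 2, and Col8a1 0 and 4. Of the 34 members with a RefSeq window, 19 held GGGCGG and 11 held CCAAT, where 33.1% and 37.5% of all 33469 windows of that length held them. TATAAA was in 4 of the 34, Col1a2 among them, and in 14.2% of all windows. A match is a description of the letters and not a binding site.

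Col8a1 encodes a short-chain collagen of vessel walls and of the sheet beneath the corneal endothelium (ENSRNOG00000039668, listed at chromosome 11, 44877859 to 45007891). It had 76.0, 59.1 and 90.7 FPKM in CGG-Cit, against 32.2, 23.4 and 28.6 FPKM in CGG. The lowest CGG-Cit library was thus well above the highest CGG library. The mean rose 2.68-fold (log2 fold change 1.38 ± 0.184, SE; adjusted p = 0.0108), and the call ended without CGG 3 (adjusted p = 0.0509). Its partner Col8a2 held steady in CGG-Cit at 44.1, 46.6 and 45.7 FPKM and spread in CGG over 41.3, 26.4 and 18.5 FPKM (adjusted p = 0.104). Without CGG 1, the highest CGG library, Col8a2 passed at 0.0328.

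The scarcer type IV chains form the networks of kidney, inner ear, eye and smooth muscle. Col4a5 (ENSRNOG00000018951, on chromosome X) had 5.76, 4.28 and 5.62 FPKM in CGG-Cit, against 2.52, 2.78 and 2.25 FPKM in CGG. It rose 2.07-fold (log2 fold change 0.82 ± 0.146, SE; adjusted p = 0.0191), a call that ended without CGG 1, CGG 3 or CGG-Cit 1 (0.0532 to 0.0708). Col4a4 had 5.42, 1.86 and 4.20 FPKM in CGG-Cit, against 1.45, 1.52 and 0.799 FPKM in CGG (adjusted p = 0.0685). Without CGG-Cit 2 it passed at 0.0488, and under TPM at 0.0438. Col4a6 had 1.01, 0.843 and 0.897 FPKM in CGG-Cit, against 0.140, 0.0781 and 0.494 FPKM in CGG, from 6 to 76 reads (adjusted p = 0.0634). It passed with voom (0.0265), under TPM (0.0489) and when no low genes were filtered out (0.0476). Col4a3, under the filter, lay at 0.35 to 0.941 FPKM in CGG-Cit and 0.167 to 0.336 FPKM in CGG. Col10a1, the collagen of hypertrophic cartilage, had at most 25 reads, and CGG 2 had 0. Beside this class, 0 of 6 tested markers of vessel endothelium passed with limma (1 by unadjusted p under 0.05, 0 by voom). The summed level of all 7 in the table was 120.7 to 166.3 FPKM in CGG-Cit and 89.0 to 154.0 FPKM in CGG. Of 8 markers of smooth muscle and pericytes 1 fell, Des (24.4 to 51.7 FPKM in CGG-Cit against 176.1 to 187.4 FPKM in CGG). The other 7 did not pass, and the median log2 fold change of the 8 was 0.45. With Des included the 8 summed to 346 to 521 FPKM in CGG-Cit against 347 to 644 FPKM in CGG. Of 8 fat cell markers 1 rose, Fabp4 (543.1 to 1234 FPKM in CGG-Cit against 216.5 to 403.1 FPKM in CGG). The other 7 did not pass, and their groups overlapped. All 8 summed to 649 to 1635 FPKM in CGG-Cit against 370.7 to 594.4 FPKM in CGG, most of it Fabp4. Of 8 Schwann cell markers 0 passed with limma (1 by unadjusted p under 0.05, 0 by voom). They summed to 91.9 to 176.6 FPKM in CGG-Cit against 56.3 to 135.3 FPKM in CGG. Of 8 markers of meninges 3 rose. All 8 summed to 173.8 to 1703 FPKM in CGG-Cit against 29.6 to 308.2 FPKM in CGG, with Slc22a6 at 0 in some CGG libraries. Ptgds, which did not pass, held most of the sum in CGG-Cit (110.7 to 1540 FPKM, against 15.4 to 269.2 FPKM in CGG). The part of these cells in the network values was not tested.

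Fibril-associated collagens went both ways. Of 9 members 5 were tested, Col14a1 rose and Col22a1 fell. Col14a1 encodes a chain that coats fibrils in skin, tendon and loose connective tissue (ENSRNOG00000026415, listed at chromosome 7, 95074236 to 95273298). It had 25.7, 26.9 and 31.2 FPKM in CGG-Cit, against 12.4, 8.89 and 6.64 FPKM in CGG. The SD was 2.90 FPKM on a mean of 27.9 in CGG-Cit and 2.89 FPKM on a mean of 9.30 in CGG. The lowest CGG-Cit library lay 13.3 FPKM above the highest CGG library. The mean rose 3.005-fold (log2 fold change 1.52 ± 0.207, SE; adjusted p = 0.0110), and Col14a1 was the only member called in all 17 alternative fits. Fibroblast markers, of which 5 of 8 rose, summed to 1768 to 2085 FPKM in CGG-Cit and 838 to 1455 FPKM in CGG, and their part in this result was not tested.

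Col22a1 encodes a chain placed at tissue junctions, above all where muscle meets tendon (ENSRNOG00000024824, listed at chromosome 7, 113015747 to 113228439). It had 2.50, 4.50 and 5.86 FPKM in CGG-Cit, against 11.2, 12.5 and 14.8 FPKM in CGG. The CGG mean was 2.996 times the CGG-Cit mean, and the log2 fold change was -1.43 ± 0.252 (SE; adjusted p = 0.0188). The call ended on leaving out CGG 2 or 3 or CGG-Cit 2 (adjusted p at most 0.0723). The skeletal muscle markers fell with it, as given above. They summed to 74.0, 33.1 and 286.3 FPKM in CGG-Cit 1, 2 and 3, against 7232, 5587 and 6347 FPKM in CGG 1, 2 and 3. Within neither group did the libraries fall in the same order by these markers as by Col22a1. An order of 3 libraries within a group does not bear on the gap between the groups. The part of the muscle markers in the result was not tested.

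The other fibril-associated genes did not pass. Col12a1, a partner of type I in tendon and periosteum, had 64.0, 90.9 and 78.4 FPKM in CGG-Cit, against 60.3, 69.7 and 50.9 FPKM in CGG (log2 difference 0.36, adjusted p = 0.176). Col16a1 had 30.7, 49.4 and 39.2 FPKM in CGG-Cit, against 30.1, 73.8 and 39.7 FPKM in CGG, where CGG 2 alone stood out. Col9a2, a chain of the cartilage collagen type IX, lay at 0.520 to 1.95 FPKM over all libraries. Col9a1, Col9a3, Col19a1 and Col20a1 stayed under the filter, with at most 46 reads in a library.

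Beaded filament genes were next in abundance after types I and III. Col6a1, which encodes a chain of the type VI filaments around muscle, fat and connective tissue cells (ENSRNOG00000001249, listed at chromosome 20, 12658065 to 12675561), had 360.5, 379.2 and 425.0 FPKM in CGG-Cit, against 174.8, 299.7 and 200.3 FPKM in CGG. It rose 1.73-fold (log2 fold change 0.82 ± 0.205, SE; adjusted p = 0.0392). That call ended without the filter on low values (0.0652) and without any library but CGG 2 (0.0794 to 0.127). Col6a2, its partner, had 286.1, 341.3 and 367.0 FPKM in CGG-Cit, against 162.9, 290.1 and 183.6 FPKM in CGG. CGG 2 overlapped the lowest CGG-Cit library, and the log2 difference of 0.68 ± 0.227 (SE) had an adjusted p of 0.0839. It passed without CGG 2 (0.0376) and after rescaling to TPM (0.0243). The third chain of these filaments is in a row without a Col symbol, AABR07068316.1, described in the table as collagen type VI alpha 3 chain, and stands outside the 43. It had 64.0, 79.6 and 88.0 FPKM in CGG-Cit, against 34.4, 70.6 and 45.2 FPKM in CGG (log2 difference 0.67, adjusted p = 0.124). In all 3 chain genes CGG-Cit 3 was the highest library, and CGG 2 was the highest of CGG.

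Of the minor beaded genes, Col6a5 had 1.75, 1.68 and 1.31 FPKM in CGG-Cit, against 1.73, 1.73 and 1.32 FPKM in CGG, so the groups overlapped fully. Col6a6 had 1.34, 0.639 and 2.02 FPKM in CGG-Cit, against 0.341, 0.254 and 0.232 FPKM in CGG (adjusted p = 0.0644). Col28a1 overlapped at 0.274 to 2.17 FPKM, and Col26a1 and Col6a4 were under the filter. With voom Col6a6 was higher at an adjusted p of 0.0413, as it was under TPM (0.0462) and quantile normalization (0.0497). The fibroblast markers given beside Col14a1 were higher in CGG-Cit beside Col6a1 as well, and their part was not tested.

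Both multiplexin genes were higher in every CGG-Cit library than in any CGG library, as were 19.6% of all genes tested, and 1 passed. Col15a1, a link between basement membranes and the fibrils beneath (ENSRNOG00000060381, listed at chromosome 5, 62840360 to 62950240), had 22.2, 22.0 and 23.6 FPKM in CGG-Cit, against 6.75, 12.4 and 7.34 FPKM in CGG. It rose 2.55-fold (log2 fold change 1.30 ± 0.210, SE; adjusted p = 0.0157), and the call ended without CGG 3 or CGG-Cit 2 (0.0592 and 0.0631). Col18a1, whose product releases endostatin, had 42.9, 50.5 and 56.2 FPKM in CGG-Cit, against 18.7, 41.4 and 20.3 FPKM in CGG (log2 difference 0.95, adjusted p = 0.0688). CGG 2 came close to CGG-Cit, and without it Col18a1 passed at 0.0187, as it did under TPM (0.0253). Fibroblast markers were higher in CGG-Cit beside these genes too, with the values given for Col14a1, and their part was not tested.

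Of 4 membrane collagen genes 3 were tested and 0 passed with limma (1 by unadjusted p under 0.05, 0 by voom). Col13a1, a collagen of adhesion sites and of the junction of nerve and muscle, had 5.17, 14.0 and 11.5 FPKM in CGG-Cit, against 17.9, 19.1 and 17.8 FPKM in CGG. The groups did not overlap, CGG-Cit 1 was far below the other libraries, and the log2 difference of -0.88 ± 0.314 (SE) had an adjusted p of 0.1. The skeletal muscle markers were lower in CGG-Cit beside it, and their part was not tested. Col17a1, a hemidesmosome collagen of skin, had 0.861, 1.11 and 1.15 FPKM in CGG-Cit, against 0.712, 0.946 and 0.722 FPKM in CGG. Col25a1, a collagen of neurons, had 0.197, 0.586 and 0.754 FPKM in CGG-Cit, against 0.491, 0.270 and 0.713 FPKM in CGG. Col23a1 and the anchoring fibril gene Col7a1 were under the filter, Col7a1 at 0.235, 0.403 and 0.331 FPKM in CGG-Cit and 0.144, 0.272 and 0.279 FPKM in CGG. Keratinocyte markers were near 0 in both groups (1.71 to 2.01 FPKM in CGG-Cit and 1.01 to 1.73 FPKM in CGG for 6 genes, with Krt14 at 0 in all libraries).

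Shares within a library do not depend on how libraries are scaled. Fibrillar chains made up 83.2%, 84.8% and 85.2% of the summed collagen FPKM in CGG-Cit 1, 2 and 3, against 91.1%, 90.3% and 93.7% in CGG 1, 2 and 3. Network chains made up 4.88%, 4.25% and 4.41% in CGG-Cit, against 2.58%, 2.15% and 1.55% in CGG. Beaded chains made up 9.17%, 8.01% and 7.90% in CGG-Cit, against 4.30%, 5.35% and 3.36% in CGG. Thus the fibrillar share was lower and the network and beaded shares were higher in every CGG-Cit library. The fibril-associated share (1.75% ± 0.189 in CGG-Cit and 1.32% ± 0.288 in CGG; SD, n = 3 each) and the multiplexin share (0.835% ± 0.0699 in CGG-Cit and 0.349% ± 0.125 in CGG) did not overlap between the groups either. Each of these comparisons had an exact two-sided permutation p of 0.1, the smallest that 3 against 3 libraries allow, and 0.156 after adjustment over the 14 sums, shares and ratios compared. The shares of a library add up to a fixed whole. Col1a1 alone made up 47.9% to 53.8% of it in CGG-Cit and 65.9% to 75.0% in CGG. A smaller part of Col1a1 raises the other shares, so these comparisons are not separate results. Summed FPKM overlapped for the fibrillar class and the fibril-associated class (124.9 to 174.8 in CGG-Cit against 113.3 to 166.5 in CGG). It did not for the network, beaded and multiplexin classes. Without Col1a1 the other 42 genes summed to 3701, 4182 and 4828 FPKM in CGG-Cit, against 2510, 3785 and 2877 FPKM in CGG, and CGG 2 overlapped CGG-Cit. Counted in recovered reads, which weight long genes more, the difference was 0.79 percentage points for the fibril-associated share and 2.65 for the beaded share, against 0.431 and 4.02 in FPKM. Without CGG 3 the fibril-associated difference became 0.265. The membrane share overlapped (0.134% ± 0.0404 in CGG-Cit and 0.2% ± 0.0375 in CGG; exact p = 0.2).

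**Figure D3:**
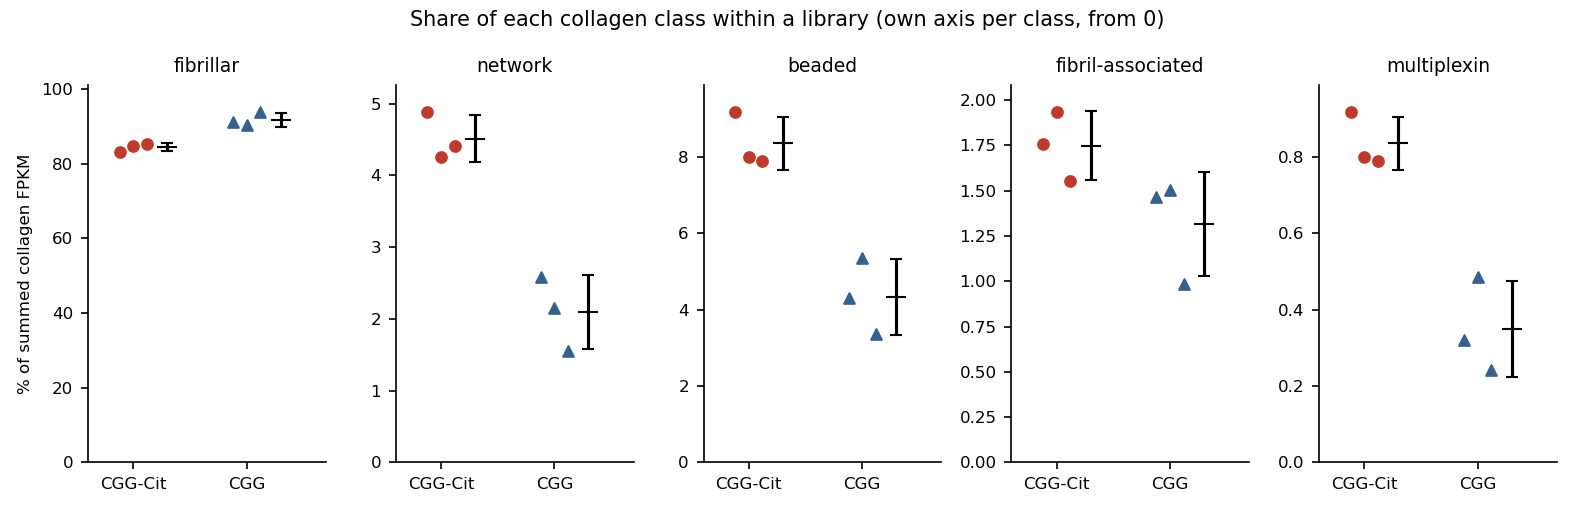
Share of each collagen class in the summed FPKM of the 43 genes, in percent, for each of the 3 CGG-Cit libraries (circles) and 3 CGG libraries (triangles), with mean and SD beside them. The fibrillar share is 83.2% to 85.2% in CGG-Cit and 90.3% to 93.7% in CGG, and the other 4 classes shown lie higher in CGG-Cit.

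The ratio of type III to type I chains separated the groups widely. Col3a1 stood at 0.556, 0.449 and 0.476 of the level of Col1a1 in CGG-Cit 1, 2 and 3, against 0.170, 0.239 and 0.104 in CGG 1, 2 and 3. On the log2 scale the means were -1.03 ± 0.159 in CGG-Cit and -2.63 ± 0.603 in CGG (SD, n = 3 each; exact two-sided permutation p = 0.1). Without CGG 3, the lowest library, the difference of 1.60 became 1.28, and without CGG 2 it became 1.88. Col5a2 relative to Col1a1 also stood higher in every CGG-Cit library (log2 means -4.67 ± 0.114 in CGG-Cit and -5.21 ± 0.195 in CGG; exact p = 0.1). Col11a1 relative to Col5a1 stood lower in every CGG-Cit library (-1.46 ± 0.131 in CGG-Cit and -0.62 ± 0.252 in CGG; exact p = 0.1).

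Between chains of one collagen type, 16 of the 22 ratios that the tested members allow overlapped between the groups, 3 lay higher in every CGG-Cit library and 3 lower. These ratios were counted after their values were seen and carry no test. Col5a3 stood higher in CGG-Cit relative to Col5a1 (0.336, 0.286 and 0.309 in CGG-Cit, against 0.169, 0.192 and 0.144 in CGG) and relative to Col5a2, and Col6a6 relative to Col6a5. Col11a2 stood lower relative to Col11a1 (0.358, 0.561 and 0.524 in CGG-Cit, against 0.627, 0.670 and 0.741 in CGG). Col6a2 and Col6a5 stood lower relative to Col6a1, Col6a2 at 0.793, 0.9 and 0.864 in CGG-Cit, against 0.932, 0.968 and 0.917 in CGG. Other partner chains overlapped. Col4a1 stood at 1.51, 1.59 and 1.58 times the level of Col4a2 in CGG-Cit, against 1.54, 1.47 and 1.61 times in CGG (exact p = 0.7). The type VI alpha 3 row stood at 0.178 to 0.210 of Col6a1 in CGG-Cit and 0.197 to 0.236 in CGG (exact p = 0.3). Col1a2 stood at 0.0946, 0.0449 and 0.0762 of Col1a1 in CGG-Cit, against 0.0999, 0.0652 and 0.0863 in CGG (exact p = 0.6).

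**Figure D4:**
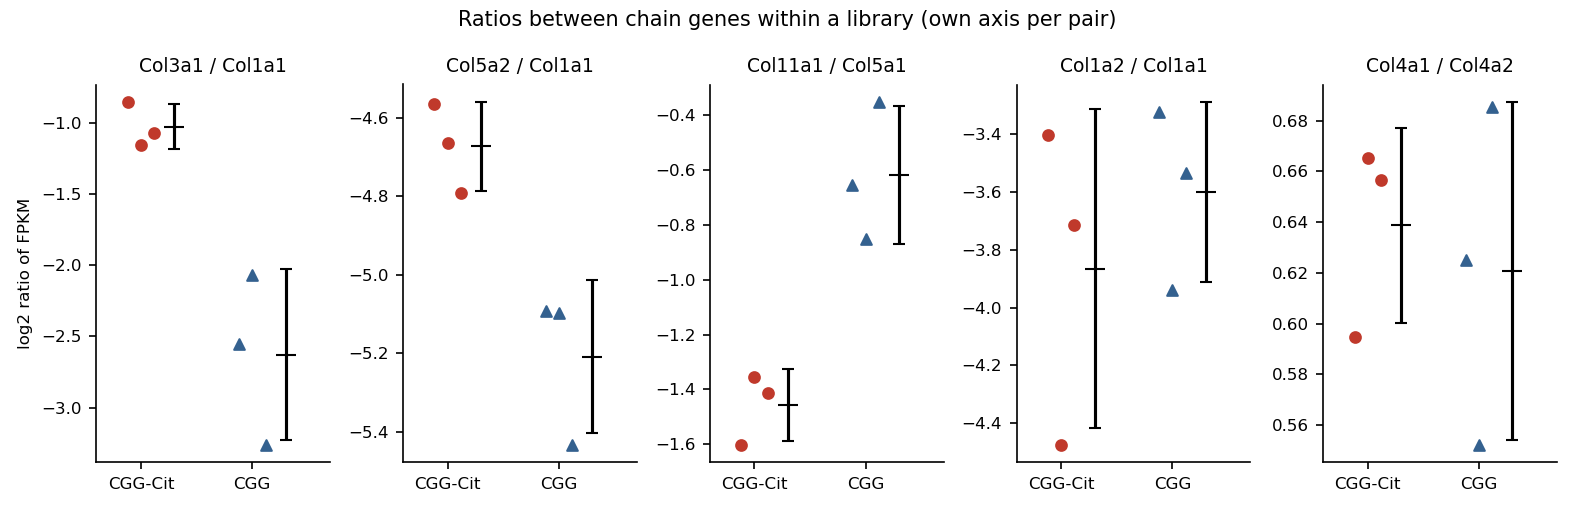
Log2 ratio of the FPKM of 2 chain genes within each of the 3 CGG-Cit libraries (circles) and 3 CGG libraries (triangles), with mean and SD beside them and an axis of its own for each pair. Col3a1 to Col1a1 and Col5a2 to Col1a1 lie higher in CGG-Cit and Col11a1 to Col5a1 lower, while Col1a2 to Col1a1 and Col4a1 to Col4a2 overlap.

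Some chains were spread over several rows of the table. A second row described as collagen alpha-1(XV) chain-like, LOC108348074, had 24.0, 9.05 and 12.2 FPKM in CGG-Cit, against 5.52, 8.35 and 8.40 FPKM in CGG. It held 45.1%, 23.8% and 28.2% of the reads of both rows in CGG-Cit, against 38.3%, 33.7% and 46.5% in CGG, so the split of type XV reads is uncertain. Second rows for Col1a2 (0.498% to 1.12% of the reads of both) and Col11a2 (0.317% to 8.24%, highest in CGG 2) took less. Adding these reads to the named gene, an alternative chosen after seeing the data, kept the same 9 calls. Reads that match 2 such copies equally may be missing from both, so the levels of Col1a2, Col11a2 and Col15a1 are uncertain.

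Genes that make, bind and break down collagen were read from the same fit. Of 56 such genes listed by role 51 were in the table and 50 were tested; 14 rose and 6 fell, beside the backgrounds of 7.75% and 9.78%. Among the enzymes that hydroxylate and glycosylate the chains 5 of 14 rose and 1 fell. Plod1, a lysyl hydroxylase of the helix, had 58.0, 57.1 and 47.8 FPKM in CGG-Cit, against 28.3, 28.0 and 23.2 FPKM in CGG, and passed in all 17 alternative fits (adjusted p = 0.00791, at most 0.0444). Plod2, the lysyl hydroxylase of the ends of the chain, had 21.4, 31.1 and 26.9 FPKM in CGG-Cit, against 39.0, 55.9 and 61.0 FPKM in CGG (adjusted p = 0.0278). Thus 2 enzymes of one family moved in opposite directions. Plod3 rose by 0.35 (adjusted p = 0.0320). Of the 6 genes of folding and export 0 passed with limma (1 by unadjusted p under 0.05, 1 by voom), among them Serpinh1, the collagen chaperone, at 352.2 to 439.5 FPKM in CGG-Cit and 344.6 to 460.3 FPKM in CGG.

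Among 6 tested genes of trimming 1 rose, the amino-end protease Adamts2 (log2 fold change 0.59, adjusted p = 0.0356). Of 5 crosslinking oxidases 2 rose. Lox had 87.6, 90.4 and 91.9 FPKM in CGG-Cit, against 60.6, 63.6 and 66.3 FPKM in CGG (adjusted p = 0.0155). Loxl1 had 98.1, 88.9 and 104.5 FPKM in CGG-Cit, against 57.6, 50.9 and 37.4 FPKM in CGG (adjusted p = 0.0169). Of 10 receptors 3 rose and 2 fell. The collagen-binding kinase Ddr2 rose by 0.51 (adjusted p = 0.0197), the integrin beta 1 gene Itgb1 by 0.41 (0.0335), and the platelet receptor Gp6 fell by 1.10 (0.0375). Of 9 genes of degradation 3 rose and 3 fell. The collagenase genes Mmp13 and Mmp8 fell by 0.94 and 2.09 (adjusted p = 0.0192 and 0.0248), and the membrane-bound collagenase Mmp14 rose by 0.67 (0.0300). Mmp8 is stored in neutrophils, whose 7 tested markers fell as well. The 8 neutrophil markers listed summed to 2260 to 5855 FPKM in CGG-Cit and 14044 to 15894 FPKM in CGG. Their part in the Mmp8 result was not tested. The Lox call ended without CGG 3 or CGG-Cit 2 and the Loxl1 call without CGG-Cit 2 (adjusted p up to 0.0592). The Ddr2, Plod2, Mmp13 and Mmp14 calls ended on leaving out CGG 3 or CGG-Cit 1 or 2, and in part 1 other library (up to 0.104), and those of Plod3, Itgb1, Gp6, Adamts2 and Mmp8 without 5 or 6 of the libraries (up to 0.114). Adamts2 and Gp6 did not pass without the filter on low values either, nor Adamts2 with quantile normalization. Over the whole pathway, leaving out CGG 1 or CGG-Cit 1 gave 4 genes higher with 2 lower, CGG 2 gave 7 with 1, and CGG 3 gave 2 with 0. Leaving out CGG-Cit 2 gave 1 with 0, and CGG-Cit 3 gave 8 with 7. The shares of all genes called moved with the library left out as well: 0.764% were higher and 1.19% lower once CGG 3 was left out, 0.933% and 1.56% once CGG-Cit 2 was, and 8.22% and 10.2% once CGG-Cit 3 was.

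Libraries of a group differed in the same direction across many of the members. CGG-Cit 1 was the lowest of its group in 24 of the 33 members tested, CGG-Cit 3 the highest in 20, and CGG 2 the highest of its group in 20. Without CGG 2 the count became 11 higher and 0 lower, where 2.63% of all genes were higher and 3.12% lower. Without CGG 3 it became 1 and 0, where the shares of all genes were 0.764% and 1.19%. Leaving out CGG 1 or CGG-Cit 1 gave 4 genes higher with 1 lower, beside 3.36% and 4.17% of all genes for CGG 1, and 3.23% and 3.06% for CGG-Cit 1. Leaving out CGG-Cit 2 gave 4 with 0, beside 0.933% and 1.56%, and CGG-Cit 3 gave 4 with 2, beside 8.22% and 10.2%. On the TPM scale 14 members were higher and 1 lower, beside backgrounds of 13.8% and 5.94%. That scale shifted the median over all genes to 0.16, and 69.9% of all its calls were higher, against 44.2% on the deposited scale. With voom on the recovered reads 10 members were higher and 4 lower, beside backgrounds of 7.89% and 10.7%.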

How the data were processed

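Paired-end sequencing of RNA from rat calvarial defects was done on an Illumina platform, per the labels, and groups were taken from sample titles and treatment labels. The authors deposited 1 table of FPKM per gene and library. Per the submitters' processing notes the tools were featureCounts 1.5.0-p3, HISAT2 2.0.5 and DESeq2 1.20.0 (roles and order unstated), and the named build is mRatBN7.2. The strand setting was not given in the sources used here, so overlapping genes cannot be told apart. The value of 1 read in each library was estimated from the FPKM themselves. Each FPKM times its gene's length, divided by that value, was whole within 0.01 in 100% of the values above 0. Read counts could thus be recovered for an alternative.

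From the deposited FPKM, log2(FPKM + 1) was tested with limma 3.58.1 in R 4.3.3 (lmFit, eBayes with a trend, no block). Genes averaging under 0.5 FPKM were left out, 15965 remained, and the Benjamini-Hochberg adjustment ran over all of them with a threshold of 0.05. Sums, shares and ratios were compared with exact two-sided permutation tests (scipy 1.17.1), and tables were made with Python 3.11.15 and pandas 2.3.3. The fit was also run on simulated data, and no result above rests on that run. Values in every library are given for members that passed, for the 3 most abundant of each class and for their partner chains, some of these chosen after their values were seen. Of each pathway list, up to 3 genes that passed are named by smallest p, and Serpinh1 was added after its values were seen. The members and lists were chosen with earlier results of these data known. Promoter windows are RefSeq's, from GRCr8, and 34 of 43 members matched. Alternatives were pseudocounts of 0.1 and 0.5, a filter at 0 or at 2 FPKM, median-of-ratios, TPM and quantile scaling, robust variance, voom on the recovered reads, a block for the replicate number, fits without each library in turn, and, chosen after seeing the data, merged rows of the same chain.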

Additional observations from a re-analysis of the deposited data

How the results depend on the processing

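All 9 collagen chain genes that passed kept their direction in the 17 alternatives. Of the 553 fits of single members, 473 kept direction and side of the threshold, 35 lost and 23 gained a call, and 22 changed sign, all of members that had not passed. The count of 8 higher members became 14 after rescaling to TPM and 1 to 11 with a library left out. The count of 1 lower became 4 with voom on the recovered reads and 0 to 2 with a library left out. For the pathway genes, 14 higher became 9 without the filter (3.79% of all genes) and 1 to 8 with a library left out, and 6 lower became 3 without the filter (5.1%) and 0 to 7 with a library left out. The median of the members became 0.68 at a mean of at least 2 FPKM, where the low members leave. In recovered reads, which weight long genes more, the difference between CGG-Cit and CGG was 0.79 percentage points for the fibril-associated, 2.65 for the beaded and 0.00265 for the anchoring fibril share, against 0.431, 4.02 and 0.00145 in FPKM.

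Over all genes tested the replicate numbers gave no sign of pairing the libraries: deviations of same-numbered libraries correlated at -0.0956 to 0.00165, and 0 of 6 libraries correlated best with its own number. With the number as a block, 4 members were higher and 4 lower, 5 of them among the 9 without a block (3.83% and 6.61% of all genes), and of the pathway genes 5 were higher and 3 lower. Col1a2, Col11a1 and Col11a2 became lower with the block, and Col4a2, Col4a5, Col5a3 and Col6a1 lost their calls. The standard errors of Col1a2, Col11a1 and Col11a2 were 0.121, 0.112 and 0.172 with the block, against 0.262, 0.263 and 0.397 without it.

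Over the fits that left out a library the log2 difference ranged from -0.24 to 0.018 for Col5a2, -0.26 to 0.079 for Col5a1, -0.085 to 0.21 for Col27a1, -0.77 to 0.30 for Col2a1, -0.46 to 0.17 for Col16a1, -0.087 to 0.070 for Col6a5 and -0.10 to 0.17 for Col25a1. After rescaling to TPM it was 0.058 for Col5a2, 0.10 for Col5a1 and 0.12 for Col6a5, and with quantile normalization 0.030 for Col6a5. For Col25a1 it was -0.0098 with a pseudocount of 0.1, -0.030 with voom and -0.082 with merged rows. The causes were not tested. Depth limits the 8 of 43 members with fewer than 10 reads in at least 1 library, Col4a6 and Col25a1 among those tested.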
